A study of Gallus gallus with 2 samples.

Results

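Astrocytes and radial glia were followed through 10 genes that are commonly used to mark them: GLUL, SLC1A3, SLC1A2, GJA1, GJB6, AQP4, S100B, FABP7, HES5 and SOX9. The genes were chosen by symbol, and a probe belonged to a gene when the symbol stood in the name or the description that the array gives for it. This gave 9 genes with 1 probe each, among 42034 probes and 8888 genes that could be named. SLC1A2 is not named by symbol on the array. A SLC1A2 probe found through its transcript accession, a contig described as GLAST-1 (the older name of SLC1A3) and a gene described as HES5-like make 3 added probes, reported apart from the 9.

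In filial imprinting a young bird learns, soon after hatching, to prefer and follow an object it has seen. Whole-brain total RNA came from newly hatched chicks of the Cobb strain, a commercial broiler line, that were either trained for 1 h or reared in the dark. Each condition had 16 chicks, whose RNA was joined by sex into pools of 8 chicks, so that 4 pools were compared: trained females, dark-reared females, trained males and dark-reared males. Each sex had a single array, with trained RNA in Cy3 and dark-reared RNA in Cy5. Without a dye swap, any dye effect common to the arrays cannot be told apart from training, and learning cannot be told apart from exposure to light. In whole-brain RNA, fewer cells of a type and less RNA per cell cannot be told apart either.

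Radial glia line the ventricles of the developing brain, give rise to neurons and later to astrocytes, and persist in birds beyond hatching. Astrocytes take up the glutamate that synapses release, turn it into glutamine with glutamine synthetase (GLUL), and are coupled to each other by gap junctions built of connexins. They also carry water channels on the endfeet that contact blood vessels.

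All 9 probes were well above background in both channels of both arrays, by the scanner software's own test, and none was saturated. Over the whole array, 61.5% to 66.5% of probes were well above background in a channel. The mean scanned intensity of the GLUL spot was between 243 and 584 times its local background over the 4 channels. The GJB6 spot stood at only 2.39 to 3.98 times its background and the HES5 spot at 3.60 to 6.64 times. The glial transcripts were thus measurable in every pool, although each stands on a single probe, whose brightness cannot be compared between genes. Before normalization the dark-reared channel was brighter, by a median of 1.82 times over the kept probes of the female and 2.03 times over those of the male array.

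After training, 4 of the 9 genes were lower, 1 was higher and 4 did not pass the test. GLUL, HES5, GJA1 and S100B fell to between 82.7% and 86.4% of the dark-reared level, and AQP4 rose to 115%. The test was limma's moderated test of the mean log2 ratio of trained over dark-reared RNA on the 2 arrays, with Benjamini-Hochberg adjustment over 27372 kept probes and a threshold of 0.05. A p-value here draws on the spread between 2 arrays, 1 of each sex, with only 1 residual degree of freedom. The test draws more on a variance estimated over all kept probes, which carries 5.06 prior degrees of freedom. The sexes thus serve as the replicates, and variation between chicks or pools of the same sex was not measured. With so few arrays the precision is low. Of all kept probes 17.5% passed, 6.31% higher and 11.2% lower, against 55.6% of these 9 genes. The median mean ratio of the 9 genes was -0.21, and that of all kept probes was -0.012. The 9 genes were chosen with earlier results of these data known, so both contrasts are description only and were not tested.

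Both trained levels lay below both dark-reared levels for 4 genes, a pattern shown by 29.9% of kept probes. Both lay above for 1 gene, as for 24.6% of kept probes, and the levels of the remaining 4 overlapped. The calls depend on how the spots were processed. With a background offset of 16 in place of 50, none of the 9 genes passed in limma after Benjamini-Hochberg adjustment (smallest adjusted p = 0.0711). The unadjusted limma p was under 0.05 for 5 of the 9 genes, and for 8546 of the 27372 kept probes. With the scanner software's processed signals, none passed either (smallest adjusted p = 0.268, with 1 unadjusted p under 0.05), and no probe of the array did, although 4878 had an unadjusted p under 0.05. The median mean ratio of the 9 genes was only -0.064 with these signals, and that of all kept probes was -0.0049. Centring each array on its median in place of the loess curve put the median of all kept probes at -0.34 and all 9 genes below that median. Values with median centring are therefore given below relative to the kept-probe median. The split of calls over the whole array was then 974 higher and 16499 lower, against 1726 higher and 3074 lower with loess. Median centring, unlike the loess curve, leaves in any trend of the ratio with brightness. For example, bright SNAP25 (level 13.20 in trained females) moved from -0.0065 with loess to -0.57 relative to the kept-probe median. Dim GAD2 (level 6.41) moved from 0.063 to 0.40. A turn of sign with median centring therefore cannot be told apart from such a trend.

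**Figure D1:**
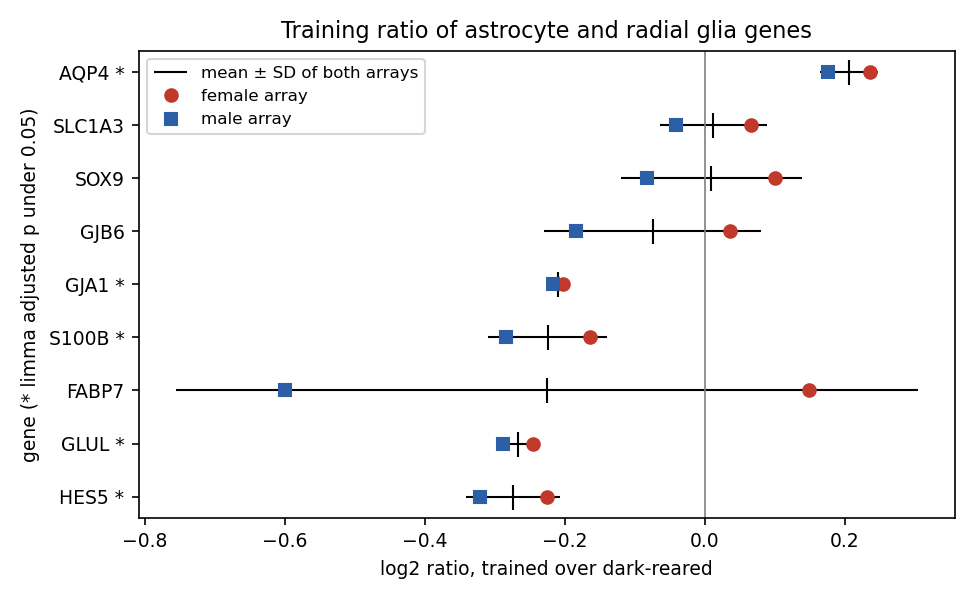
Log2 ratio of trained over dark-reared RNA (x axis) for the 9 genes on the female and the male array, with the mean of both. GLUL, HES5, GJA1 and S100B lie below 0 and AQP4 above 0 on both arrays, whereas FABP7 stands at 0.15 in females and -0.60 in males.

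GLUL encodes glutamine synthetase, which joins ammonia to the glutamate that astrocytes take up. Its probe lies on chromosome 8 at 5661765 to 5661824 of galGal2, the chicken build used in the array's design. The normalized log2 level was 13.79 in trained and 14.04 in dark-reared females, and 13.86 in trained and 14.15 in dark-reared males. Both trained pools were low and both dark-reared pools high, with no overlap. The log2 ratio was -0.25 in females and -0.29 in males, and GLUL fell by 0.27 on the log2 scale, with an SD of 0.030 (n = 2 arrays, limma adjusted p = 0.0247). The processed signals gave a mean of only -0.021, with 0.017 in females and -0.059 in males.

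SLC1A3 encodes the glutamate transporter GLAST, which clears glutamate from the space around synapses. The design gives its probe no position on galGal2. Its level was 12.85 in trained and 12.79 in dark-reared females, and 12.91 in trained and 12.95 in dark-reared males. The conditions overlapped, and each sex showed a small difference of opposite sign (0.066 and -0.042). The mean of 0.012 (SD 0.076, n = 2 arrays) did not pass in limma (adjusted p = 0.908). The contig described as GLAST-1 gave 0.097 in females and -0.035 in males, with a mean of 0.031 (limma adjusted p = 0.762). Neither probe passed in either direction.

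SLC1A2 encodes GLT-1, the other main glutamate transporter of astrocytes, and its added probe lies on chromosome 5 at 16012109 to 16012168. Levels were 9.29 in trained and 9.26 in dark-reared females, and 9.16 in trained and 9.24 in dark-reared males. The pools of the 2 conditions overlapped. The mean ratio was -0.021 (SD 0.078, n = 2 arrays, limma adjusted p = 0.837).

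GJA1 encodes the main connexin of astrocyte gap junctions, and its probe lies on chromosome 3 at 60233057 to 60233116. Levels were 13.87 in trained and 14.08 in dark-reared females, and 13.81 in trained and 14.03 in dark-reared males. The trained pools were lower in both sexes without overlap. The ratios of -0.20 and -0.22 were the closest pair among the 9 genes, with a difference of 0.015. GJA1 fell by 0.21 on the log2 scale, with an SD of 0.010 (n = 2 arrays, limma adjusted p = 0.0440). The processed signals gave -0.12, and with the median in place of the mean pixel of each spot the decrease of 0.19 did not pass.

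GJB6 encodes a second connexin of astrocytes, which joins them together with the GJA1 protein. Its probe lies on chromosome 1 at 170912377 to 170912436. Levels were 7.20 in trained and 7.16 in dark-reared females, and 7.10 in trained and 7.28 in dark-reared males. The male dark-reared pool was the highest and the male trained pool the lowest, with both female pools between them. The mean ratio of -0.074 (SD 0.16, n = 2 arrays) did not pass in limma (adjusted p = 0.509), and its sign turned to 0.18 with the processed signals.

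AQP4 encodes the water channel of astrocyte endfeet, and its probe lies on chromosome 2 at 103626699 to 103626758. Levels were 11.20 in trained and 10.97 in dark-reared females, and 11.27 in trained and 11.10 in dark-reared males. It was the only one of the 9 genes with both trained pools above both dark-reared pools. The ratios were 0.24 and 0.18, and AQP4 rose by 0.21 on the log2 scale, with an SD of 0.042 (n = 2 arrays, limma adjusted p = 0.0495), a direction that turned with median centring, to -0.20 relative to the kept-probe median. The call was also lost when a probe had to be well above background in both channels, when the median pixel was used, and with the processed signals, which gave 0.015.

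**Figure D2:**
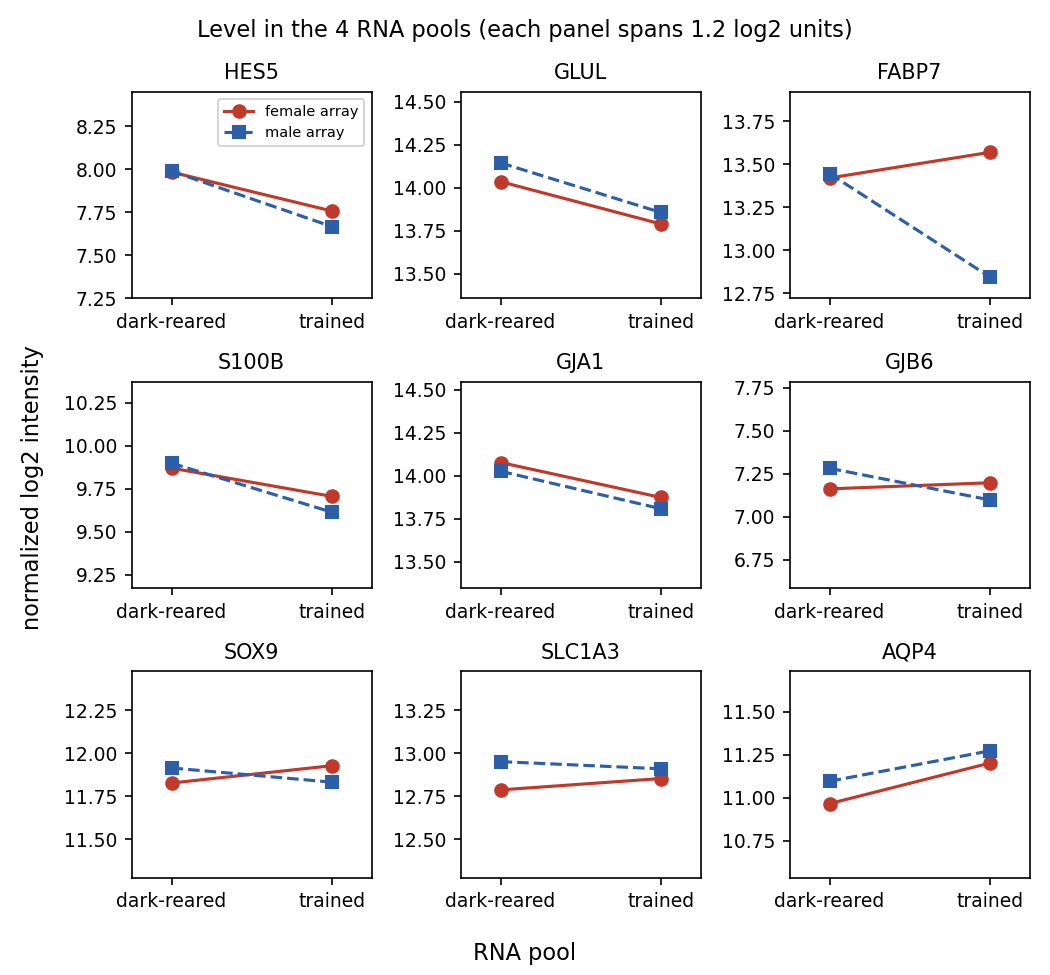
Normalized log2 level (y axis) of each of the 9 genes in the 4 pools, with trained and dark-reared pools of a sex joined by a line; each panel spans 1.2 log2 units around its own gene. The lines of both sexes slope alike for GLUL, HES5, GJA1, S100B and AQP4, and the trained male pool stands alone for FABP7, at 12.85 against 13.42 to 13.57.

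S100B encodes a calcium-binding protein of astrocytes, and its probe lies on chromosome 7 at 6790973 to 6791032. Levels were 9.70 in trained and 9.87 in dark-reared females, and 9.61 in trained and 9.90 in dark-reared males. The trained pools were lower in both sexes without overlap. The ratios were -0.16 and -0.28, and S100B fell by 0.22 on the log2 scale, with an SD of 0.085 (n = 2 arrays, limma adjusted p = 0.0479), a direction that turned with the processed signals, to 0.10. The call was lost without background correction.

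FABP7 encodes the brain lipid-binding protein, a fatty acid carrier of radial glia and immature astrocytes. Its probe lies on chromosome 3 at 59667931 to 59667990, on the same chromosome as that of GJA1. Levels were 13.57 in trained and 13.42 in dark-reared females, and 12.85 in trained and 13.45 in dark-reared males. The trained male pool stood below the other 3, which lay close together. The trained level was 111% of the dark-reared level in females and 66.0% of it in males. The mean ratio of -0.23 therefore had an SD of 0.53 (n = 2 arrays) and did not pass in limma (adjusted p = 0.387).

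HES5 encodes a transcriptional repressor that Notch signalling induces in radial glia and other neural progenitors. Its probe lies on chromosome 21 at 1331440 to 1331499. Levels were 7.76 in trained and 7.98 in dark-reared females, and 7.67 in trained and 7.99 in dark-reared males. The dark-reared pools were nearly level with each other, and both trained pools lay below them. The ratios were -0.23 and -0.32, and HES5 fell by 0.27 on the log2 scale, with an SD of 0.068 (n = 2 arrays, limma adjusted p = 0.0261). It was the one called decrease that was larger with the processed signals, at -0.36. That value did not pass (limma adjusted p = 0.268), and the HES5 spot was dim, at 3.60 to 6.64 times its background. The HES5-like gene on the same chromosome, at 1324459 to 1324518, was close to its background (1.30 to 1.64 times) and gave a mean of -0.020 (limma adjusted p = 0.835).

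SOX9 encodes a transcription factor that acts in the start of gliogenesis and marks astrocyte nuclei. Its probe lies on chromosome 18 at 8574362 to 8574421. Levels were 11.93 in trained and 11.83 in dark-reared females, and 11.83 in trained and 11.91 in dark-reared males. The conditions overlapped and the sexes differed in sign (0.10 and -0.082). The mean of 0.0090 (SD 0.13, n = 2 arrays) did not pass in limma (adjusted p = 0.940), and it turned to -0.14 with the processed signals.

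**Figure D3:**
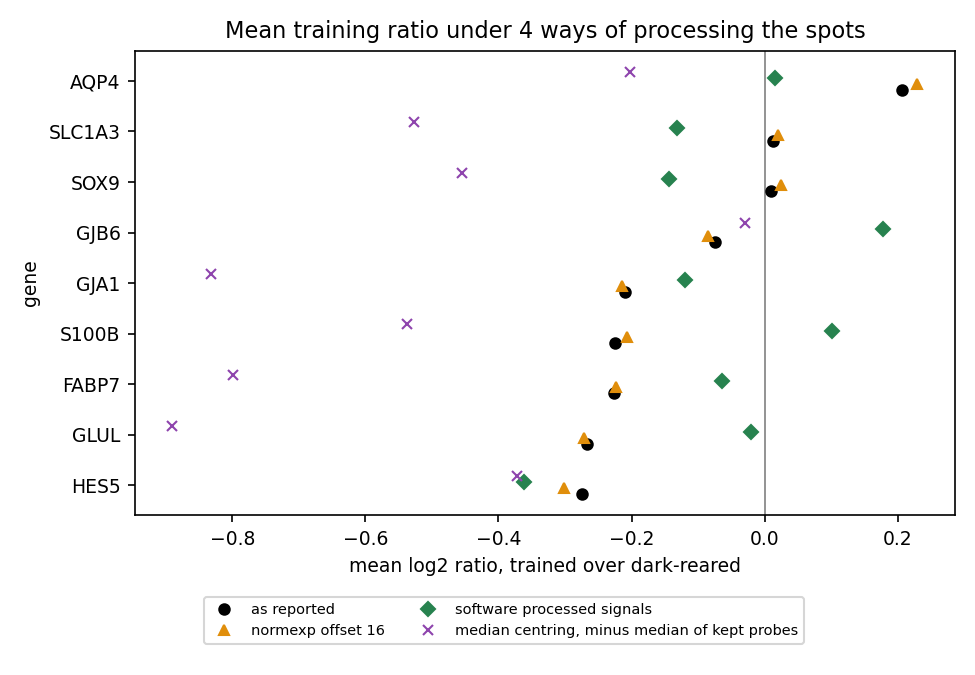
Mean log2 ratio of trained over dark-reared RNA (x axis) of the 9 genes as reported and under 3 other ways of processing; the values with median centring are given relative to the median of the kept probes. HES5, GJA1, GLUL and FABP7, which was not called, stay below 0 in all 4, whereas S100B and GJB6 lie above 0 with the processed signals. AQP4 lies below 0 with median centring, and SLC1A3 and SOX9 lie below 0 with both of these settings. Median centring leaves in any trend of the ratio with brightness.

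The authors' deposited tables also give a p-value for each spot, which the scanner software derived from that spot alone. This p-value was under 0.05 for 2 of the 18 spots of the 9 genes, both on the male array. The share of all spots under this threshold was not counted, so the count is not read as a result about these genes. In the authors' deposited table it was 0.0257 for HES5 in males, with a log2 ratio of -0.47 trained over dark-reared. It was 0.0386 for FABP7 in males, with a log2 ratio of -0.43.

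The female and the male array were compared next, without a test, because each sex had 1 array. The ratio was higher in females than in males for 9 of 9 genes, whereas this was so for 51.5% of all kept probes. With the median pixel of each spot it was so for 7 of the 9. The median difference was 0.11 for the 9 genes and 0.0041 for all kept probes. FABP7 had the widest gap of the 9, at 0.75 on the log2 scale, and only 81 kept probes (0.296%) had a gap as wide in either direction. In 46 of these 81 probes the female ratio was the higher one, and in 35 the male. The gaps of the other 8 genes, from 0.015 for GJA1 to 0.22 for GJB6, lay within the 95th percentile of kept probes, 0.30. With the processed signals the gap of GJB6 was 0.38.

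**Figure D4:**
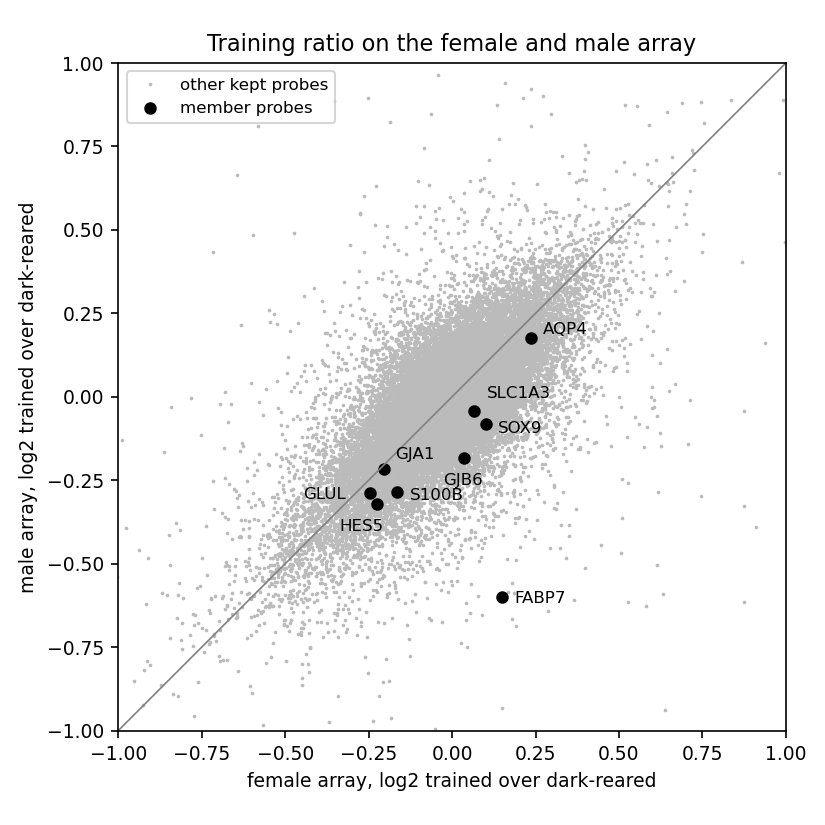
Log2 ratio of trained over dark-reared RNA on the female (x axis) and the male array (y axis), with the 9 genes in black, the other kept probes in grey and the line of equal ratios; 40 kept probes lie outside the plot. All 9 genes lie below the line, and FABP7 lies farthest from it.

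The gap of FABP7 lay in the trained pools. Its level in trained females was 0.72 log2 units above that in trained males (1.65-fold), while the dark-reared pools differed by -0.025. The scanned mean intensities of the trained pools were 7752 in females and 4464 in males, and those of the dark-reared pools were 16830 and 18433. The low spot held 60 pixels with a variation of 6.75% (SD over mean), and its mean was 1.00 times its median. It carried no outlier flag, and FABP7 has 1 probe, so no other probe bears on the value. With the processed signals the ratio was 0.30 in females and -0.43 in males. These signals come from the same spots and pools, so they are not a separate measurement of the gap.

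For the other 8 genes, the level differences between the sexes were smaller. In the trained pools the female minus male difference ran from -0.071 (AQP4) to 0.10 (GJB6), and in the dark-reared pools from -0.16 (SLC1A3) to 0.051 (GJA1). FABP7 included, 6 of the 9 genes were higher in females in the trained pools and 1 of 9 in the dark-reared pools, against 53.0% and 51.2% of kept probes. All of these differences except that of FABP7 in trained pools were under the 95th percentile of kept probes, 0.28 in trained and 0.30 in dark-reared pools. For GJB6 the dark-reared difference moved from -0.12 to -0.33 when processed signals less their 75th percentile were used. SLC1A3 lies on the sex chromosome Z of the chicken, of which males carry a pair and females a single copy. The female minus male difference of its probe was -0.057 in trained and -0.16 in dark-reared pools. The contig described as GLAST-1 gave wider differences, of -0.11 and -0.24. The 564 kept probes placed on chromosome Z had medians of -0.21 and -0.23, and all kept probes had medians of 0.0081 and 0.0034.

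Other genes of the same cell types and pathways were counted from lists chosen by function, with the brightest kept probe of each gene. Over all 5 lists, 64 genes of 71 on the array were kept, of which 12 were higher, 7 were lower and 45 did not pass. That is 29.7% called, and the median ratio was 0.017. Of all kept probes 17.5% were called, 6.31% higher and 11.2% lower, with a median of -0.012. The kept probes include unnamed probes and more than 1 probe of some genes, so they are unlike the lists. A share over named genes at their brightest probe was not computed. The count of each list below is to be read beside these shares. The lists were chosen with earlier results of these data known, so the contrasts were not tested. Among astrocyte genes, 4 of 16 rose and 2 fell, with a median of 0.065. DIO2, the deiodinase by which glia make active thyroid hormone, rose by 0.94 on the log2 scale (limma adjusted p = 0.00697). With median centring it stood 0.62 above the kept-probe median. GPR37L1, a receptor of astrocytes, rose by 0.29 (limma adjusted p = 0.0189) and SPARC, a secreted matrix protein, by 0.24 (limma adjusted p = 0.0415). With median centring GPR37L1 stood 0.033 above the kept-probe median, and SPARC turned to -0.19 relative to it. CST3, the secreted protease inhibitor cystatin C, fell by 0.31 (limma adjusted p = 0.0205), and BMPR1B, a receptor for bone morphogenetic proteins, fell by 0.42 (limma adjusted p = 0.0103).

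Among radial glia and progenitor genes, 5 of 23 rose and 2 fell, with a median of 0.017. NR2E1 (TLX), a nuclear receptor that maintains neural stem cells, rose by 0.54 (limma adjusted p = 0.00818), HOPX, a marker of outer radial glia in primates, by 0.39 (limma adjusted p = 0.0314) and LFNG, which modifies Notch receptors, by 0.32 (limma adjusted p = 0.0165). With median centring these 3 stood 0.15, 0.15 and 0.058 above the kept-probe median. HOPX differed between the arrays, at 0.22 in females and 0.56 in males, a gap beyond the 95th percentile of kept probes, 0.30. NES, the intermediate filament protein nestin, fell by 0.40 (limma adjusted p = 0.0119) and SOX3, a transcription factor of neural progenitors, by 0.28 (limma adjusted p = 0.0242). With the processed signals NES gave only -0.063 and SOX3 gave -0.44. HES4, a repressor of the same family as HES5, rose by 0.27 (limma adjusted p = 0.0233) and stood 0.083 above the kept-probe median with median centring. Its probe carries the array symbol HES1 and was named HES4 through the reference table.

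In the handling of glutamate and glutamine, 0 of 10 other genes rose and 1 fell in limma with Benjamini-Hochberg adjustment, with a median of -0.037. The one was GAD1, which makes GABA from glutamate and fell by 0.32 (limma adjusted p = 0.0209), a direction that turned with the processed signals, to 0.10. Among 9 other connexins and aquaporins, 1 rose and 1 fell, with a median of -0.042. GJB1, the connexin of oligodendrocytes, rose by 0.27 (limma adjusted p = 0.0257) and stood 0.29 above the kept-probe median with median centring. GJD2, the connexin of electrical synapses between neurons, fell by 0.56 (limma adjusted p = 0.00818), and by only 0.18 with the processed signals. Among 11 paralogs of the 9 genes, 3 rose and 1 fell, with a median of -0.062. S100A10 rose by 0.54 (limma adjusted p = 0.00818) and SOX8 by 0.26 (limma adjusted p = 0.0319), and with median centring they stood 0.24 and 0.33 above the kept-probe median. S100A11 fell by 0.41 (limma adjusted p = 0.0115).

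Markers of other cell types were measured on the same arrays. Their counts again use the brightest kept probe of each gene. They are to be read beside the 6.31% of all kept probes called higher and the 11.2% called lower. Among 8 neuron markers 1 was higher and 2 were lower, with a median of 0.0076. STMN2, a microtubule regulator of growing neurites, fell by 0.39 (limma adjusted p = 0.0127) and THY1, a surface protein of neurons, rose by 0.33 (limma adjusted p = 0.0220), which turned to -0.061 relative to the kept-probe median with median centring. Among 6 oligodendrocyte markers 1 was higher and 2 were lower, with a median of 0.034, and MBP, a protein of myelin, fell by 0.62 (limma adjusted p = 0.0129) and ASPA, which breaks down N-acetylaspartate, by 0.44 (limma adjusted p = 0.0180). The ratio of MBP was -0.43 in females and -0.80 in males, a gap of 0.37, beyond the 95th percentile of kept probes, 0.30. With the processed signals MBP gave -0.24 and ASPA only -0.090. Among 9 endothelial and mural markers 0 were higher and 3 were lower in limma, with a median of -0.054. SOX18, a transcription factor of vessels, fell by 0.67 (limma adjusted p = 0.00719) and the brightest probe of VWF, a clotting protein of endothelium, fell by 0.71 (limma adjusted p = 0.00697), while 2 other VWF probes gave -0.060 and -0.080. Among 6 microglia markers 1 was higher, CD74 at 0.23 (limma adjusted p = 0.0378), which turned to -0.26 relative to the kept-probe median with median centring. The probe named CSF1R through the reference table carries the array symbol PDGFRB, and at 0.15 it did not pass. Of 2 ependymal markers TEKT1 fell by 0.26 (limma adjusted p = 0.0289) and RSPH1, at 0.18, did not pass. With the processed signals TEKT1 gave only -0.024. The part of these cell types in the values of the 9 glial genes was not tested.

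**Figure D5:**
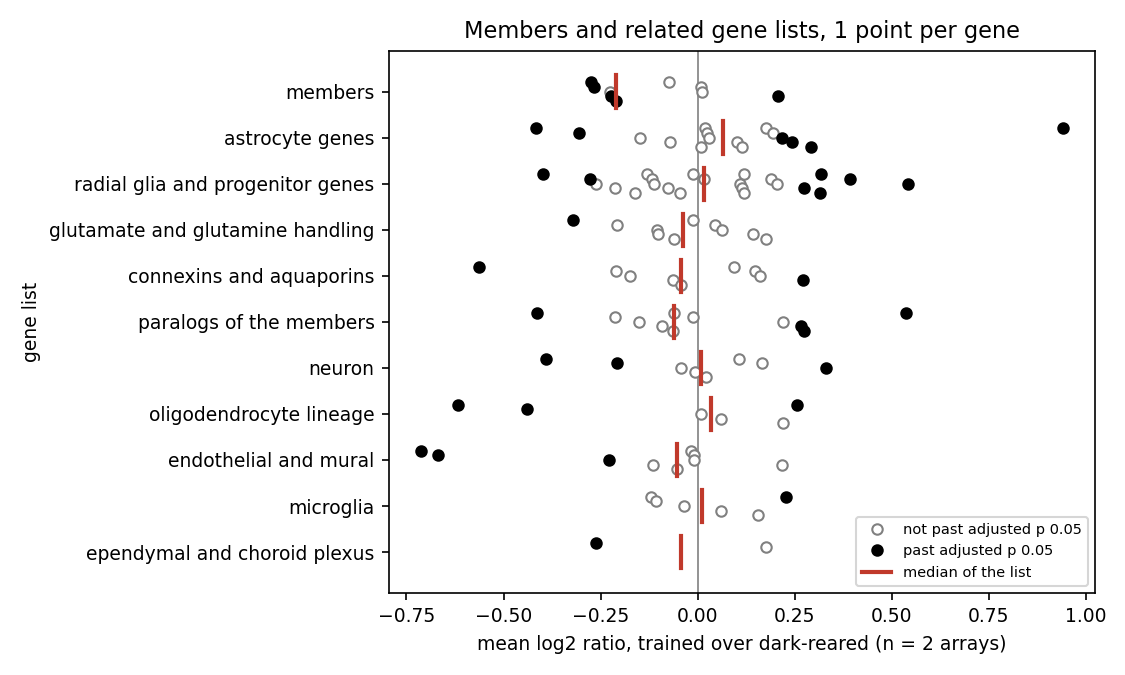
Mean log2 ratio of trained over dark-reared RNA for each kept gene of the pathway and marker lists, with calls at a limma adjusted p of 0.05 and the median of each list. Genes spread to both sides of 0 in most lists, with medians of the other lists between -0.062 and 0.065 and of the 9 genes at -0.21. With the processed signals, which are not plotted, the median of the 9 genes was -0.064. Those of the other lists then lay between -0.11 and 0.12.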

How the data were processed

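Agilent 2-colour arrays compared a trained and a dark-reared pool of each sex. The deposited scanner tables give the mean and median intensity of each spot, its background and a processed intensity, made with Feature Extraction, version 8.5.1.1 per the submitters' processing notes and 9.5.3.1 per the file headers. The deposited log10 ratio is of dark-reared over trained, with the software's spot-level p-value beside it, per the file headers. The authors' deposited series table gives log2 ratios of trained over dark-reared processed signals (within 0.01 for all 42034 probes), with medians of 0.067 and 0.082. Sample titles name the trained condition first in words and the dark-reared one first in their codes, and the direction here follows the dye labels.

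Mean intensities were corrected with normexp (offset 50) and normalized by loess that gave control spots a weight of 0, using limma 3.58.1 (R 4.3.3, data.table at version 1.17.8). A kept probe had no outlier flag (25 probes had one) and was, on each array, well above background in a channel or more. Ratios were tested with lmFit and eBayes (1 residual and 5.06 prior degrees of freedom) with Benjamini-Hochberg adjustment over 27372 probes. Levels were normalized by loess and Aquantile. The lmFit, eBayes and adjustment steps were tested on simulated ratios. Background correction, normalization and the filter on probes were not simulated.

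Probes outside the member set were named through RefSeq's GRCg7b table by accession (5309), gene number (3774), symbol (888) or synonym (310), or from the array's description (100), and 31653 stayed unnamed. Coordinates are those of galGal2, and exon or UTR positions were not analysed here. No genome or sequence table was used, so no sequences are printed.

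The members and lists were chosen with earlier results of these data known. Named genes are all members, the 3 largest called means in each direction of each pathway list, and the 2 largest means of each marker list. Alternatives changed the background correction, signal, normalization, filter and moderation. Median pixel signals, the added probes and, for the single genes' ratios, both alternative filters were chosen after seeing the data; the filters had been planned for the counts of called members.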

Additional observations from a re-analysis of the deposited data

Results flagged for a closer look

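For 7 probes the log2 ratio of trained over dark-reared RNA lay above 0 on the female and below 0 on the male array. Each sex had 1 array, so the difference between the sexes was not tested. The female minus male difference was 0.75 for FABP7, 0.22 for GJB6, 0.18 for SOX9 and 0.11 for SLC1A3. Among the added probes it was 0.13 for the GLAST-1 contig, 0.11 for SLC1A2 and 0.067 for the HES5-like gene. Of all kept probes 71.9% had the same sign on both arrays, and the median size of the difference was 0.084, so that only that of FABP7 lay beyond the 95th percentile of 0.30. In each of the 7 the mean over both arrays did not pass the test.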

How the results depend on the processing

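Over the whole array 4800 probes passed as reported. With offset 16 the count was 934, with processed signals it was 0 (4878 unadjusted p under 0.05, smallest adjusted p 0.261), and with median centring it was 17473. Members called higher numbered 1 as reported and 0 with offset 16, processed signals, median centring, the filter on both channels and median pixels. Members called lower numbered 4 as reported, 0 with offset 16 and with processed signals, and 9 with median centring. Pathway genes called higher numbered 12 as reported, 3 with offset 16 (astrocyte 1, radial glia 1, connexins 0, paralogs 1), 0 in every list with processed signals, and 3 with median centring (astrocyte 1, radial glia 1, paralogs 0). Those called lower numbered 7, 2 with offset 16 (astrocyte 1, radial glia 0, glutamate 0, paralogs 0), 0 with processed signals, and 48 with median centring (13, 17, 9, 5 and 8 in the lists as ordered in the report). Counts with median centring are against 0 and include the shift of the kept-probe median to -0.34 and any trend of the ratio with brightness. Signs against 0 turned with it for AQP4 (-0.55), SLC1A3 (-0.87), SOX9 (-0.80), the GLAST-1 contig (-0.70) and the HES5-like gene (0.039), which relative to that median are -0.20, -0.53, -0.45, -0.35 and 0.38. They turned for GJB6 (0.18), S100B (0.10), SLC1A3 (-0.13), SOX9 (-0.14) and SLC1A2 (0.11) with processed signals, and for SLC1A2 (0.0070) with offset 16. The GJB6 female minus male ratio moved to 0.38 with processed signals. Less the 75th percentile, processed signals moved the GJB6 dark-reared level difference to -0.33 and those of the HES5-like gene to -0.40 and -0.43. The cause of these shifts was not tested. Leaving out an array leaves the ratio of the other, with no test, from -0.60 for FABP7 in males to 0.24 for AQP4 in females. The test is itself paired, because each ratio is of trained against dark-reared RNA of 1 sex within an array, and no further block can be fitted. Dim spots (GJB6, HES5, the HES5-like gene) are limited by signal over background.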

Other observations

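The lists were also described by how the female and the male array compared. Their counts, at the brightest kept probe of each gene, are to be read beside all kept probes. Of all kept probes 51.5% had the higher ratio in females, with a median difference of 0.0041. Among 8 neuron markers the trained over dark-reared ratio was lower in females for 7, with a median female minus male difference of -0.17. Among 6 oligodendrocyte markers it was higher in females for 5, with a median of 0.18. Astrocyte genes beyond the members were higher in females for 11 of 16 (median 0.076), and radial glia and progenitor genes for 15 of 23 (median 0.072). Genes that handle glutamate and glutamine were higher in females for 3 of 10 (median -0.093). In the remaining lists the ratio was higher in females for 5 of 9 connexins and aquaporins (median 0.024) and 6 of 11 paralogs (0.028). It was so for 3 of 9 endothelial and mural (-0.0039), 4 of 6 microglia (0.067) and 0 of 2 ependymal markers (-0.061). With the processed signals the medians were -0.11 for neuron and 0.18 for oligodendrocyte markers, and with median centring they were -0.022 and 0.28. These are single arrays, and the differences were not tested.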
